A study of Mus musculus with 50 samples.

Results

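The genes described here are the mouse zinc finger genes named Zfp500 to Zfp999, that is Zfp followed by a 3-digit number that starts with 5 to 9. They were chosen by symbol among the genes of the FPKM table of V6.5 cells with hairpins, which lists only genes above 0 in each of its 12 libraries. A further 46 symbols of the class that only the other tables list are not members, and why the FPKM table lacks them was not tested. The FPKM table listed 162 genes of the class among its 17043 genes, and these 162 are the members. Each of the 3 other expression tables listed 161 of them among 55421 genes, with Zfp607 not found there.

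RNA-seq was done on mouse embryonic stem (ES) cells and on epiblast-like cells (epiLC), the state that ES cells enter when they leave naive pluripotency towards the post-implantation epiblast. The series asks about developmental genes under β-catenin and the proteins that associate with it. In the first table, V6.5 cells in 2i medium (inhibitors of MEK and GSK3, which hold ES cells naive) carried short hairpins against HP1γ (labelled shHP1r, n = 2), β-catenin (shBcat, n = 2), E2F6 (shE2F6, n = 2) or GFP as control (shGFP, n = 6). In the second, a line labelled QKO, which the labels do not spell out, carried shBcat or shGFP in 2i for 48 h (n = 3 each). The third held V6.5 cells, for which no hairpin is named, in 2i and after 24 and 48 h as epiLC (n = 2 each). The fourth held V6.5 epiLC that carried shBcat, taken at 24, 48 and 96 h, beside a control group of epiLC taken at 96 h, for which no hairpin is named (n = 2 each). The promoter driving the hairpins and the number of clones behind each group are not given in the sources used here. The values of the first table are FPKM and those of the other 3 are TPM, the tables were scaled separately, and no level is compared across them.

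Many genes of this number class encode KRAB zinc finger proteins. Such a protein reads DNA with an array of C2H2 zinc fingers, and its KRAB domain recruits Trim28, which brings in the H3K9 methyltransferase Setdb1 and HP1 proteins, among them HP1γ (gene Cbx3). In ES cells these proteins are known for silencing retrotransposons, and their genes lie in clusters that grew by tandem duplication and are themselves known to carry H3K9 methylation and HP1. The number is a naming series and not a domain: Zfp703 and Zfp503 are corepressors of the NET family, Zfp598 is a ubiquitin ligase that senses collided ribosomes, and Zfp622 serves ribosome assembly. Which members hold a KRAB domain was not analysed here.

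The members were spread over the genome in groups. By RefSeq coordinates (GRCm38.p6), 48 members lay on chromosome 7, 22 on 17, 16 on 8, 11 on 13 and 10 on 9. In all, 82 members lay in a run of at least 3 numbered Zfp genes whose starts were at most 250000 bases apart. Reads of near-identical neighbours in such runs can be split or shared by the counting, so the value of a single member of a run is uncertain.

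RefSeq promoters, from 250 bases before to 50 after the gene start, were found for 134 of the 162 members. A promoter held a median of 15 CG dinucleotides among the members and 7 among all 27025 RefSeq promoters. The 4 below are shown because Zfp600, Zfp534 and Zfp640 fell together in epiLC and Zfp560 rose with shHP1r. Capitals mark each CG. Zfp600 lies at chr4:146156577-146156876 (plus strand), Zfp534 at chr4:147702582-147702881 (minus), Zfp640 at chr13:66680754-66681053 (minus) and Zfp560 at chr9:20385109-20385408 (minus), all in GRCm38.p6 and written 5′ to 3′ on the gene's strand.
Zfp600: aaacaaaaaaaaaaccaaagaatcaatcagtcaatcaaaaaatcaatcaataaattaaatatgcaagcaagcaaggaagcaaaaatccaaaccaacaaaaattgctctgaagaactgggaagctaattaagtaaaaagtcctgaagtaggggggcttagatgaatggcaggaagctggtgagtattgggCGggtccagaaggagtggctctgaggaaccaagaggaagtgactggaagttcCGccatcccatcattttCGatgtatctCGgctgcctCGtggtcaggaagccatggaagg
Zfp534: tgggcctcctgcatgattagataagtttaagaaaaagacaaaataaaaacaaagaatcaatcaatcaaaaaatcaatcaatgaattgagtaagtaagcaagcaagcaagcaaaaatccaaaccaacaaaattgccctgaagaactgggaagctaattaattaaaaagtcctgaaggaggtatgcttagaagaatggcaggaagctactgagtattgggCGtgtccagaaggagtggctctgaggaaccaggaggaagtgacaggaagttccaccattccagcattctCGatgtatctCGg
Zfp640: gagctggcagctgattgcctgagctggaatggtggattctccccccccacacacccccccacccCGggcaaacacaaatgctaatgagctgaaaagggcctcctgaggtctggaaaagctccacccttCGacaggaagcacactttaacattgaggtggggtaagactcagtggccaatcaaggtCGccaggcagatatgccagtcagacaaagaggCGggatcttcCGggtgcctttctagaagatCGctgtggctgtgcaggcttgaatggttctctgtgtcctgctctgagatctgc
Zfp560: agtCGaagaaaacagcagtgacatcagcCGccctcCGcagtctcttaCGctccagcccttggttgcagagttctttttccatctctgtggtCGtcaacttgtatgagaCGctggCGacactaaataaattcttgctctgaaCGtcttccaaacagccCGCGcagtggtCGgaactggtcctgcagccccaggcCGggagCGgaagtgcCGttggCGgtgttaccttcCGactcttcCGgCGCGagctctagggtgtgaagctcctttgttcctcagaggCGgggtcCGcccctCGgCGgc
The Zfp600 and Zfp534 windows had 242 bases identical in a global alignment, 80.7% of their length, whereas the Zfp600 and Zfp640 windows had 165. Few CG dinucleotides stood in these 3 windows (5, 3 and 6), against 23 in that of Zfp560. On both strands, the E-box CACGTG was found in 16 of the 134 member promoters (11.9%, against 7.22% of all promoters). The E2F letters GCGGGAA were found in 12 (8.96%, against 4.7%) and the Tcf letters CTTTGAT in 7 (5.22%, against 3.76%). The E-box and E2F letters each hold a CG, and member windows held more CG than all promoters. The part of this in the motif shares was not tested. None of the 4 windows shown held any of the 3 motifs, which says only that these letters are not in these windows. Zfp819 and Zfp936, whose windows are not shown, also fell in epiLC. Their windows held 20 and 6 CG dinucleotides, and that of Zfp819 held the E-box letters.

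Most members were expressed at a low level. In shGFP controls of V6.5 cells the median member stood at 3.57 FPKM, 25 of the 162 reached 10 FPKM and 23 stayed under 1. Zfp600 was the highest at 86.6 ± 34.9 FPKM (SD, n = 6), but its control libraries split: replicates 3 and 4 held 131 and 132 and the other 4 held 61.1 to 70.3. In V6.5 cells in 2i of the third table, the median member stood at 7.62 TPM and 64 of 161 reached 10 TPM. There Zfp706, a gene known for its part in the exit from the ES cell state, was highest at 239 ± 0.74 TPM (SD, n = 2), followed by Zfp534 (107 ± 7.96) and Zfp600 (82.7 ± 6.87).

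The hairpins lowered their targets in each test. Cbx3 stood at 6.92 ± 0.46 FPKM with shHP1r against 63.5 ± 5.88 with shGFP, Ctnnb1 (β-catenin) at 6.6 ± 0.021 with shBcat against 116 ± 20.3, and E2f6 at 3.06 ± 0.686 with shE2F6 against 10.0 ± 0.819. Between 12446 and 14151 genes reached 1 FPKM per V6.5 hairpin library, and between 13924 and 15351 reached 1 TPM in the other libraries. Read depth is unknown. The 12 V6.5 hairpin libraries fell into 2 sets: mitochondrial transcripts made up 19.3% to 22.9% in both shE2F6 libraries and in 2 of the shGFP libraries (replicates 3 and 4), and 6.23% to 10.3% in the other 8. The 6 shGFP libraries also lay in pairs (1 and 2, 3 and 4, 5 and 6), and the labels do not say that replicates were separate cultures, and a p-value here covers library-to-library spread alone. With each pair of shGFP libraries and each hairpin's 2 libraries averaged to 1 value, 0 members passed by limma in any of the 5 V6.5 hairpin comparisons (1 to 5 members had an unadjusted p under 0.05, and Zfp560 with shHP1r had an adjusted p of 0.121).

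With shHP1r, 6 members rose and 5 fell among the 144 members tested in this table, and the remaining 133 did not pass. Over all 14407 genes tested, 7.59% passed, so the members' share of 7.64% was near the background. The split differed: over all genes 5.89% rose and 1.7% fell, whereas among members 4.17% rose and 3.47% fell. The median member changed by 0.06 on the log2 scale and the median gene by 0.04. Calls throughout are limma tests at an adjusted p of 0.05 over all genes of the table, and changes are on the log2(value + 1) scale, which understates low genes.

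Zfp560 showed the largest rise with shHP1r. It stood at 4.1 and 4.1 FPKM in the 2 shHP1r libraries and between 0.705 and 1.01 (median 0.89) in the 6 controls. No control came near the knockdown libraries, and the ratio of means was 4.68 (log2 change 1.45 ± 0.09 SE, adjusted p = 1.41e-05). Its level was 0.473 and 0.409 FPKM with shBcat, a fall (log2 change -0.38 ± 0.09 SE, adjusted p = 0.0302), and 0.706 and 0.748 with shE2F6, which did not pass (adjusted p = 0.36). At most 1.01 FPKM elsewhere, Zfp560 met the level for testing (1 FPKM in 2 libraries) through the shHP1r libraries. All its tests in these V6.5 libraries thus depended on the group where it was high.

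Zfp809, a KRAB zinc finger protein known for marking proviral DNA for silencing in ES cells, also rose. It stood at 25.1 and 27.2 FPKM with shHP1r and at 13.7 to 18.6 (median 15.2) in controls, with no overlap (log2 change 0.72 ± 0.12 SE, adjusted p = 0.00424). Zfp951 stood at 8.01 and 8.61 against 4.4 to 5.32 (median 4.74), also with no overlap (0.68 ± 0.11 SE, adjusted p = 0.00337). These 3 rises stayed past the threshold when any single library was left out. The rises of Zfp640 (44.1 and 41.6 against 25.6 to 33.8, log2 change 0.49) and Zfp612 (3.39 and 2.71 against 1.42 to 2.3, log2 change 0.49) did not overlap their controls either, but each was lost on leaving out any of 6 single libraries. The sixth, Zfp711, with means of 1.4 against 0.646, lies under the level for named genes and is given only to complete the count. With at most 1.01 FPKM in controls, it too met the level for testing through the shHP1r libraries.

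Zfp819, a KRAB protein reported to bind Trim28 and to act on retrotransposons in pluripotent cells, fell with shHP1r. It stood at 5.7 and 4.92 FPKM against 7.1 to 9.43 (median 9.12) in controls (log2 change -0.60 ± 0.12 SE, adjusted p = 0.0128). The 2 lowest controls were replicates 1 and 2, still above both knockdown libraries. Zfp553 fell (19.9 and 19.4 against 24.7 to 36.8), as did Zfp628 (2.06 and 2.31 against 2.78 to 3.68), Zfp827 (3.03 and 2.73 against 3.45 to 4.6) and Zfp704 (6.28 and 5.81 against 7.6 to 8.19). The call of Zfp819 was lost without shHP1r replicate 1 (adjusted p = 0.055) or replicate 2 (0.0754), and those of the other 4 falls without any of 5 to 8 single libraries.

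Without shHP1r replicate 1, 3 members passed, and without shGFP replicate 3, 4, 5 or 6 it was 6, 5, 4 or 5. Median-of-ratios scaling gave 6 rises and 1 fall, a term for the 4 libraries with a high mitochondrial share gave 11 and 18, and the other 4 shGFP libraries as the only controls, an alternative added after seeing the data, gave 9 and 12. Markers of 2-cell-like cells moved with shHP1r: 8 of 8 had a mean of at least 1 FPKM with shHP1r and 7 of 8 with shGFP, and their sum lay between 448 and 542 FPKM, against 93.3 to 110 in shGFP. The 3 listed fibroblast or feeder markers summed to 3.32 to 5.2 FPKM against 0.677 to 1.63, and the 5 listed primitive endoderm markers to 4.18 to 6.24 against 1.24 to 3.66. The part of these lists in the members' changes was not tested. In bulk libraries such as these, fewer cells of a type and less RNA per cell cannot be told apart.

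Of 30 listed corepressor and H3K9 genes, 0 rose and 4 fell with shHP1r (13.3%, against 7.59% of all genes called and 1.7% falling): Cbx3 itself, Uhrf1 (55.6 against 76.2 FPKM, adjusted p = 0.0223) and Dnmt1 (47.5 against 63.1, adjusted p = 0.0324), which together maintain DNA methylation, and Ehmt1, an H3K9 methyltransferase (6.08 against 7.97, adjusted p = 0.0262). Trim28 and Setdb1 did not pass.

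**Figure D1:**
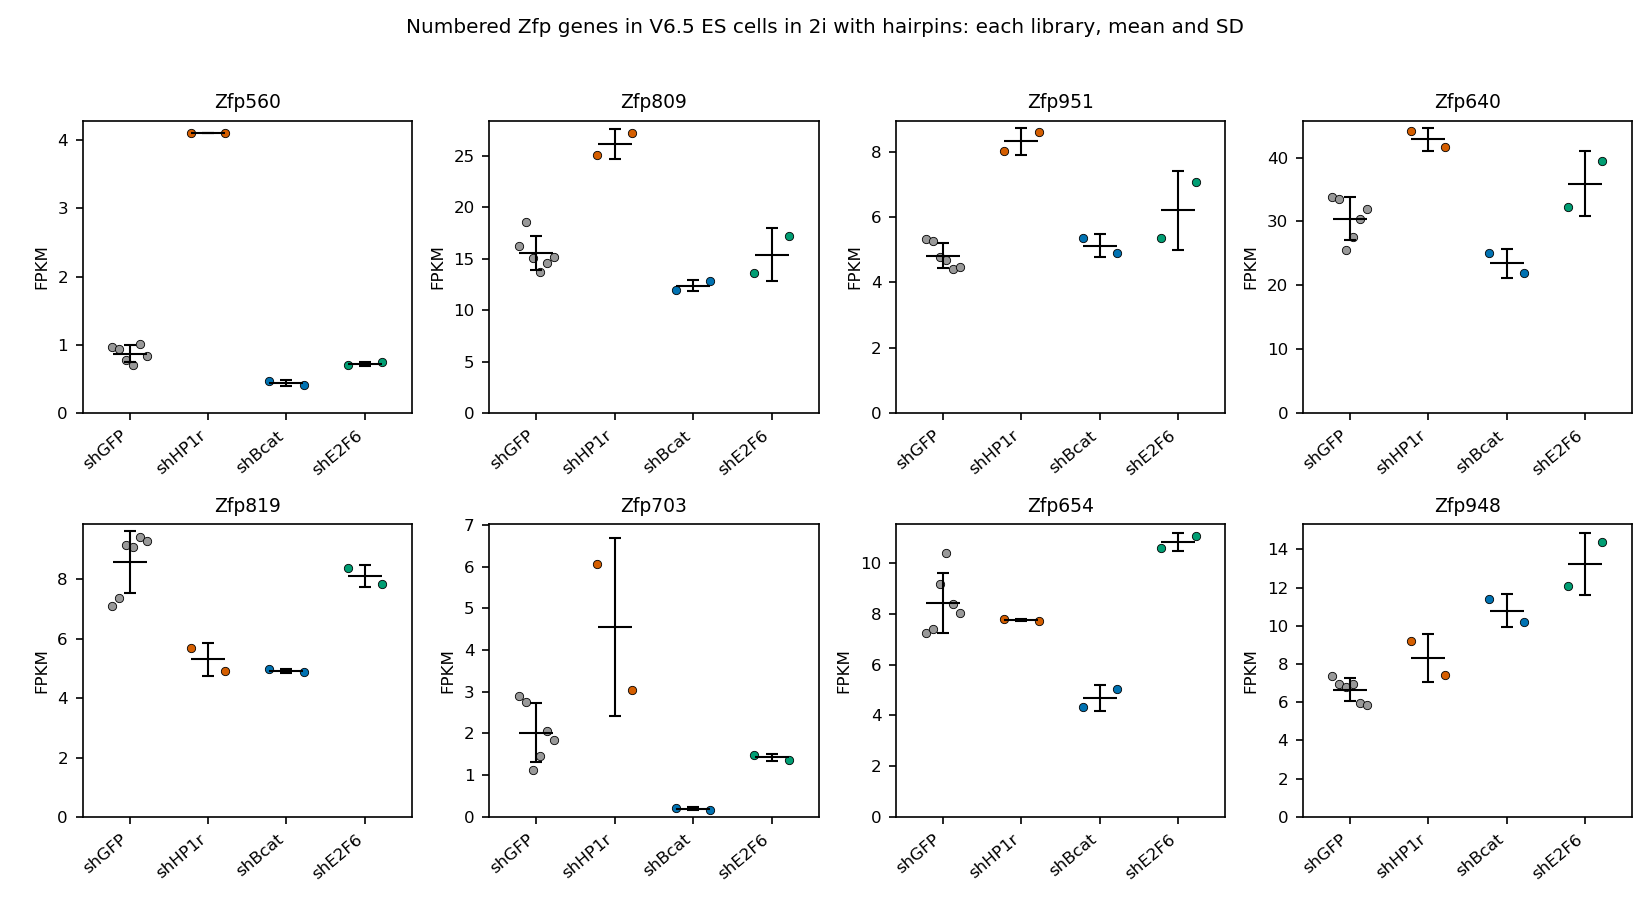
FPKM (y axes, linear) of 8 members in the 12 V6.5 hairpin libraries in 2i; each point is a library, and the bar and whiskers give the mean and SD. Zfp560 stood at 4.1 FPKM in both shHP1r libraries and at no more than 1.01 in any control, and Zfp703 was lowest with shBcat.

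With shBcat in V6.5 cells, 2 members rose and 11 fell of 144, or 9.03% against 8.71% of all genes. More members fell than rose (7.64% against 1.39%), and over all genes 5.21% fell and 3.51% rose. The median member changed by -0.10 and the median gene by 0.01. Among the other numbered Zfp genes of the table, 4 rose and 6 fell of 141.

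Zfp703 fell furthest. It stood at 0.215 and 0.166 FPKM with shBcat and at 1.12 to 2.91 (median 1.95) in controls, so every control was above both knockdown libraries. The control mean was 10.6 times the knockdown mean (log2 change -1.31 ± 0.25 SE, adjusted p = 0.0105). With shHP1r the values were 6.07 and 3.04 FPKM, both above every control, but the difference did not pass (adjusted p = 0.0684). Zfp503, its NET family relative, stood under 1 FPKM in every library of the table and was not tested.

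The other falls with shBcat were smaller on the log2 scale. Zfp654 stood at 4.32 and 5.04 FPKM against 7.24 to 10.4 (median 8.22), and Zfp946 at 1.93 and 1.81 against 3.04 to 4.02 (median 3.41). Zfp819, which also fell with shHP1r, stood at 4.97 and 4.88 against 7.1 to 9.43. All 3 pairs of groups were apart, with log2 changes of -0.73 ± 0.13, -0.63 ± 0.11 and -0.69 ± 0.12 (SE) and adjusted p-values of 0.00576, 0.00536 and 0.00631. Zfp628, Zfp553, Zfp526 and Zfp667 fell by 0.54, 0.53, 0.44 and 0.40 on the log2 scale. Zfp574 (means 5.82 against 7.83 FPKM), Zfp551 and Zfp560, both under 2 FPKM in each group, complete the 11. Zfp628 and Zfp553 also fell with shHP1r, but both comparisons share the 6 shGFP libraries.

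Zfp948 and Zfp652 rose with shBcat. Zfp948, which lies in the chromosome 17 run described below, stood at 11.4 and 10.2 FPKM against 5.85 to 7.38 (median 6.87) in controls (log2 change 0.63 ± 0.12 SE, adjusted p = 0.00903). Zfp652 stood at 7.09 and 6.76 against 4.2 to 5.31 (median 4.46; log2 change 0.49 ± 0.10 SE, adjusted p = 0.0139). Both groups were apart in each gene.

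The calls with shBcat need both knockdown libraries: without replicate 1 or without replicate 2 of shBcat, 0 members passed by limma, the lone library then being assumed to vary like the other groups (21 and 22 members had an unadjusted p under 0.05). Median-of-ratios scaling gave 5 rises and 14 falls, the term for the 4 high-mitochondrial libraries 9 and 30, and the other 4 shGFP libraries as the only controls 8 and 23. With shBcat 3 of 8 markers of 2-cell-like cells had a mean of at least 1 FPKM, and their sum was 8.69 and 8.71 FPKM with shBcat, against 93.3 to 110 in shGFP. The 6 epiLC markers summed to 28.5 to 30.8 against 16.0 to 19.05, but 3 of them had a mean of at least 1 FPKM with shBcat and 4 with shGFP. The 6 trophoblast markers summed to 4.04 to 4.11 against 5.34 to 9.13. The part of these lists was not tested. Of the 30 corepressor genes, 1 fell (Chd3, of the NuRD complex, 3.12 against 9.12 FPKM, adjusted p = 0.00679) and 0 rose. That is 3.33% falling, against 5.21% of all genes.

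With shE2F6, 1 member of 144 passed (0.694%, against 1.06% of all genes, 0.41% rising and 0.652% falling). This was Zfp948, at 12.1 and 14.4 FPKM against 5.85 to 7.38 in controls (log2 change 0.90 ± 0.12 SE, adjusted p = 0.00738). It was apart from every control, and was lost without shE2F6 replicate 2 (adjusted p = 0.183). Zfp574 (5.71 and 5.75 against 7.19 to 8.47, adjusted p = 0.0532) and Zfp800 (5.77 and 7.12 against 2.51 to 4.38, adjusted p = 0.0609) had the next smallest p and did not pass. Without shGFP replicate 3 or 4, which share the high mitochondrial share of the shE2F6 libraries, 28 and 26 members passed, and with neither as a control 62. With neither, the hairpin and the set of libraries cannot be told apart. The share of all genes called in those fits is not given here, so these counts have no background beside them. Marker sums lay below every shGFP library: 535 to 537 FPKM against 591 to 1014 for the 8 naive markers, 194 to 199 against 241 to 488 for the 3 shared by ES cells and epiLC, 11.4 to 12.5 against 16.0 to 19.05 for the 6 of epiLC and 51.8 to 78.0 against 93.3 to 110 for the 8 of 2-cell-like cells. The 3 fibroblast or feeder markers summed to 0.332 to 0.596 against 0.677 to 1.63. Their part was not tested. The median gene changed by -0.20 as deposited and by 0.00 under median-of-ratios scaling, and the median member by -0.04 and 0.14.

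The levels of Zfp600 and Zfp534, the highest of the shGFP controls, split with the 2 sets of libraries. Zfp600 stood at 117 and 142 FPKM with shE2F6 and at 131 and 132 in shGFP replicates 3 and 4, against 59.6 to 70.3 in the other 8 libraries. Zfp534 stood at 99.5 and 115 with shE2F6 and 98.9 and 98.6 in those controls, against 49.7 to 78.1 elsewhere. Neither passed in any comparison of a hairpin with shGFP in this table.

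Set against each other, shHP1r and shBcat differed at 10 members, all higher with shHP1r (6.94% of 144; over all genes 9.31% passed, 6.97% upwards). Zfp703 (log2 change 2.17 ± 0.31 SE, adjusted p = 0.00103), Zfp560 (1.82 ± 0.11 SE, adjusted p = 2.38e-06) and Zfp809 (1.02 ± 0.15 SE, adjusted p = 0.00115) differed most and stayed past the threshold without any single library. Zfp640 followed at 0.84 ± 0.16 (SE, adjusted p = 0.00594), and was lost without shBcat replicate 2 (adjusted p = 0.0803). Without shBcat replicate 1 or 2 or shHP1r replicate 1, 4, 3 and 5 members passed. Against shE2F6, 9 members were higher and 7 lower with shHP1r (11.1%; over all genes 15.5%, with 12.3% higher and 3.17% lower), and Zfp560 (1.56 ± 0.11 SE) and Zfp827 (-0.81 ± 0.12 SE), the largest in each direction, passed without any single library. Median-of-ratios scaling, which moved the median gene from 0.26 to -0.05, turned that split to 5 higher and 22 lower. Without shE2F6 replicate 1 or 2 or shHP1r replicate 1 or 2, 4, 3, 4 and 10 members passed.

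In QKO cells, 1 of 156 members tested passed with shBcat (0.641%, against 2.15% of all genes, with 0.585% higher and 1.56% lower). Zfp640 stood at 120, 136 and 143 TPM with shBcat and at 104, 97.3 and 104 with shGFP, with no overlap (log2 change 0.38 ± 0.07 SE, adjusted p = 0.047). The call was lost on leaving out any of 4 of the 6 libraries, with adjusted p up to 0.164. Zfp703 stood at 2.3, 1.78 and 1.23 TPM against 3.38, 6.55 and 3.29, and Zfp503 at 0.67, 0.56 and 0.53 against 1.39, 2.28 and 1.28. Both sets of libraries were apart and both genes missed the threshold (adjusted p = 0.0723 and 0.0586). Ctnnb1 itself stood at 64.4 ± 17.1 against 505 ± 20.2 TPM. Of the 30 corepressor genes, 0 rose and 1 fell with shBcat (3.33%, against 1.56% of all genes falling). This was Cbx3, at means of 183 against 220 TPM (adjusted p = 0.0408). Fibroblast or feeder markers also moved: their summed level was 61.5 to 88.9 TPM with shBcat and 246 to 576 with shGFP, and their part was not tested.

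The passage from 2i to epiLC changed most members. At 24 h, 63 rose and 59 fell of 155 tested (78.7%, against 76% of all 16559 genes, 36.2% rising and 39.8% falling), at 48 h against 24 h 63 rose and 55 fell (76.1%, against 74.2%, 45.2% rising and 28.9% falling), and at 48 h against 2i 64 rose and 59 fell (79.4%, against 75.9%). The shares were near the background. At 48 h against 2i, 41.3% of members rose and 38.1% fell, against 45.1% and 30.8% of all genes, and the median member changed by 0.00 against 0.11 for all genes. Median-of-ratios scaling, which moved the median gene at 48 h against 24 h from 0.12 to -0.03, turned that split to 45 rises and 68 falls.

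Of the 155 members tested, 34 rose at 24 h and fell at 48 h (21.9%, against 18.1% of all genes) and 34 fell and then rose (21.9%, against 25.8%). Another 20 rose at both steps (12.9%, against 10.1%) and 5 fell at both (3.23%, against 5.85%). Both steps share the 24 h libraries, so these counts only describe the course. Naive markers fell from a sum of 1260 to 1270 TPM in 2i to 160 to 165 at 24 h, and epiLC markers rose from between 91.1 and 94.7 to between 912 and 918. At 48 h epiLC markers summed to 376 to 380 TPM and naive markers to 219 to 236. Markers shared by ES cells and epiLC fell from between 1392 and 1440 at 24 h to between 436 and 454. Primitive endoderm markers summed to 6.61 and 6.64 at 24 h and to 21.4 to 25.2 at 48 h. Trophoblast markers summed to 5.66 to 5.78 and then 14.6 to 16.4, and those of 2-cell-like cells to 100 to 104 and then 48.2 to 54.3. Their part in the members' changes was not tested.

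**Figure D2:**
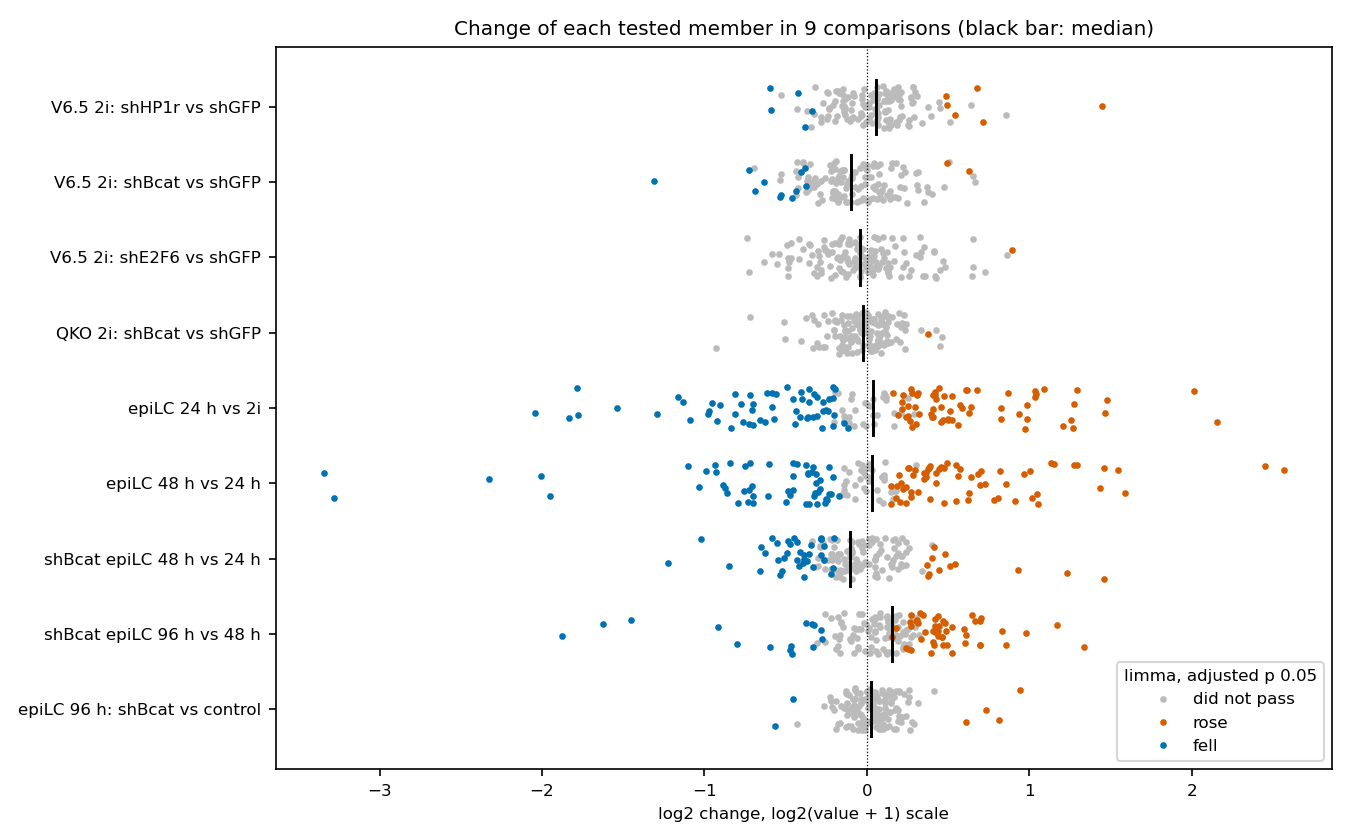
Log2 change on the log2(value + 1) scale (x axis) of each tested member in 9 comparisons (rows); points are members, coloured where limma's adjusted p was under 0.05, and black bars are medians. The hairpins in 2i moved few members. The 2 epiLC steps without shBcat moved 78.7% and 76.1% of members, near the 76% and 74.2% of all genes. With shBcat the steps moved 31.6% and 41.3% (all genes 33.4% and 35%). The falls of Zfp640 (-3.34) and Zfp600 (-3.28) from 24 to 48 h without shBcat were farthest out.

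A group of members stayed high through the first day and then dropped. Zfp600 stood at 87.5 and 77.8 TPM in 2i, 101 and 103 at 24 h, and 9.8 and 9.45 at 48 h. Its 24 h mean was 10.6 times that at 48 h (log2 change -3.28 ± 0.06 SE, adjusted p = 1.38e-07). Zfp534, whose promoter resembles that of Zfp600, stood at 112 and 101 in 2i, 114 and 116 at 24 h, and 23.0 and 21.3 at 48 h (-2.32 ± 0.06 SE). Both 48 h libraries lay far below all 4 earlier ones in each gene.

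Zfp640 followed the same course on chromosome 13, at 70.5 and 66.5 TPM in 2i, 61.8 and 64.8 at 24 h, and 5.48 and 5.19 at 48 h. The drop was 11.9-fold (log2 change -3.34 ± 0.05 SE, adjusted p = 8.73e-08), and the first step did not pass (adjusted p = 0.0694). Zfp819 stood at 12.9 and 12.6, then 10.7 and 11.2, then 2.26 and 1.7 TPM (-2.01 ± 0.09 SE for the second step). Zfp936 first rose, from 22.4 and 21.1 to 41.05 and 40.04 TPM (0.87 ± 0.06 SE), and then fell to 10.3 and 9.3 (-1.95 ± 0.06 SE). Zfp951 and Zfp808 fell by 1.10 and 1.04 on the log2 scale at the second step. None of these second-step calls was lost without any single library.

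Not all members known for silencing retrotransposons moved this far. Zfp809 stood at 30.9 and 31.7 TPM in 2i, 36.3 and 37.1 at 24 h and 22.6 and 20.3 at 48 h (0.22 ± 0.05 and then -0.75 ± 0.05 SE, both past the threshold). Zfp932, a repressor of endogenous retroviruses, stood between 29.4 and 35.7 TPM in all 6 libraries and did not pass at either step. Zfp568, which is known for repressing a placental promoter of Igf2, stood at 63.9 and 64.5, 65.9 and 66.0, and 75.6 and 74.6 TPM, a rise at the second step of 0.18 ± 0.03 (SE). Zfp706 changed by 0.22 and then by -0.33 on the log2 scale.

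**Figure D3:**
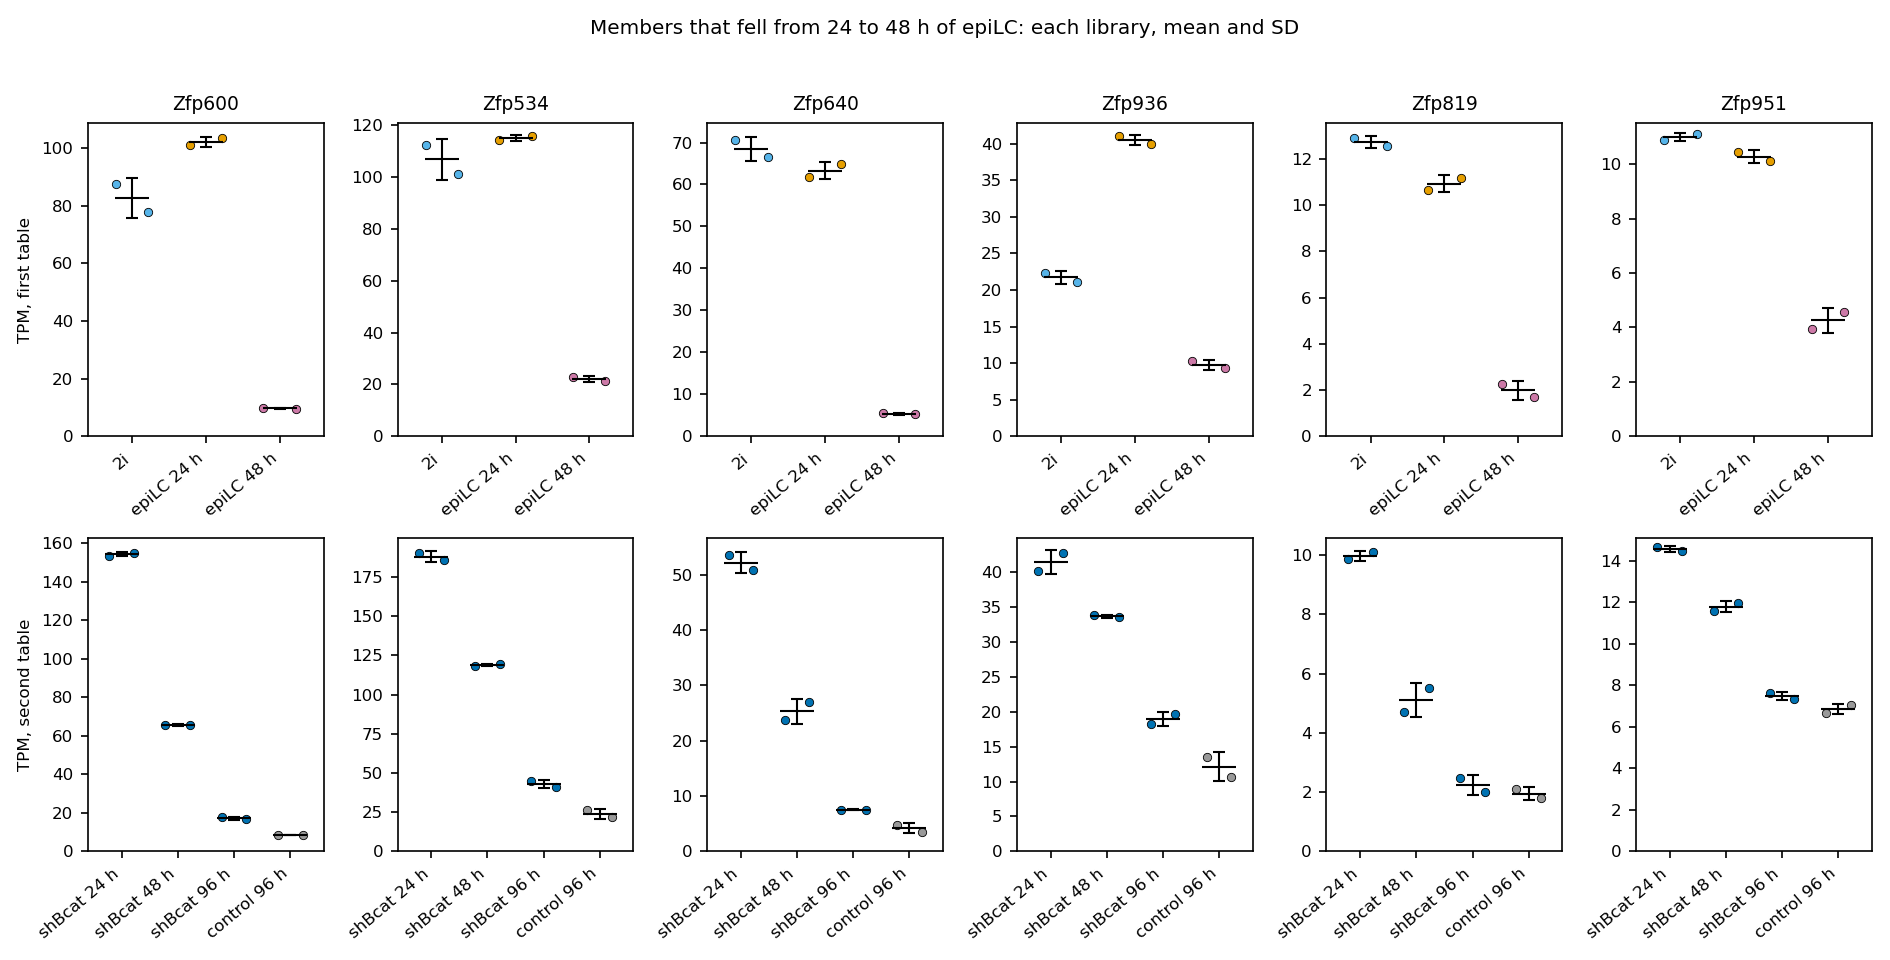
TPM (y axes, linear) of 6 members. The upper row holds V6.5 cells with no hairpin named (2i, then 24 and 48 h of epiLC). The lower row holds shBcat epiLC at 3 times beside the 96 h control, from a table scaled apart. Points are libraries, with mean and SD. In the upper row each gene was lowest at 48 h. In the lower row the falls of Zfp600, Zfp534, Zfp640, Zfp819 and Zfp951 passed at both shBcat steps, and that of Zfp936 only from 48 to 96 h.

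Other members were lost at the first step. Zfp773 stood at 11.7 and 12.0 TPM in 2i, 2.1 and 2.13 at 24 h and 2.76 and 2.77 at 48 h. The 2i mean was 5.6 times that at 24 h (log2 change -2.04 ± 0.06 SE, adjusted p = 4.52e-07). Zfp934 fell from 69.3 and 66.8 to 18.7 and 18.1 TPM (-1.83 ± 0.04 SE) and partly returned to 36.8 and 36.9 at 48 h (0.97 ± 0.04 SE). Zfp704 (19.1 and 19.6, then 5.07 and 4.74, then 11 and 10.7 TPM) went the same way, and Zfp710 (39.5 and 41.5, then 13.2 and 13.4, then 14.3 and 15.4 TPM) stayed low. Zfp839 and Zfp942 fell by 1.16 and 1.13 on the log2 scale at 24 h. In each of these genes the 2i libraries were above all epiLC libraries.

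Zfp703 dipped and then overshot. It stood at 7.27 and 7.57 TPM in 2i, 1.55 and 1.36 at 24 h, and 13.97 and 13.15 at 48 h, so the 24 h libraries were lowest and the 48 h libraries highest. The log2 change was -1.78 ± 0.07 (SE) and then 2.57 ± 0.07 (SE, adjusted p = 4.62e-07). Zfp800 went the same way (9.19 and 8.28, 3.06 and 2.88, 10.6 and 11.3 TPM), as did Zfp946 (8.12 and 7.78, 4.37 and 4.66, 13.9 and 14.4 TPM).

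Members that rose included genes barely present in 2i. Zfp608 stood at 0.18 and 0.12 TPM in 2i, 4.07 and 4.17 at 24 h, and 11.6 and 11.2 at 48 h, a rise at both steps (2.15 ± 0.07 and 1.28 ± 0.07 SE). Zfp521, a cofactor known for promoting the neural fate of ES cells, stood at 0.42 and 0.47, 0.27 and 0.12, and 5.52 and 5.54 TPM, a small fall and then a rise at the second step (-0.28 ± 0.09 and 2.45 ± 0.09 SE). The first-step call of Zfp521 was lost without any of 3 single libraries. Zfp579 (1.58 and 2.43, 3.53 and 3.54, 11.1 and 11.5 TPM) and Zfp618 (1.57 and 1.31, 3.29 and 3.35, 10.5 and 8.81 TPM) rose at both steps. Zfp697 rose by 1.54 on the log2 scale at the second step, from a mean of 0.47 to 3.29 TPM. The highest libraries of these 5 genes were all at 48 h. Zfp521 and Zfp697 stood under 1 TPM in 2i and at 24 h, so they were tested only because of their 48 h libraries. Zfp608 reached 1 TPM only in epiLC. Members that stayed under the level for testing, such as Zfp575 and Zfp784, were left out by the same filter.

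A further group peaked at 24 h. Zfp532, which shares a chromatin complex with Zfp687, stood at 25.7 and 24.8 TPM in 2i, 107 and 103 at 24 h, and 73.7 and 76.1 at 48 h (2.02 ± 0.04 and then -0.48 ± 0.04 SE). Zfp771 (4.51 and 4.55, 13.8 and 15.1, 8.76 and 8.22 TPM) and Zfp628 (1.81 and 1.74, 6.91 and 6.45, 4.22 and 3.88 TPM) did likewise. Zfp882, Zfp658 and Zfp959 rose by 1.30, 1.28 and 1.27 at 24 h and fell again by 0.99, 0.45 and 0.71. Zfp668 rose by 1.26 and did not pass at the second step, at 10.5 to 11.3 TPM in the 4 epiLC libraries. For all but Zfp668 the 24 h libraries were above those of both other groups.

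**Figure D4:**
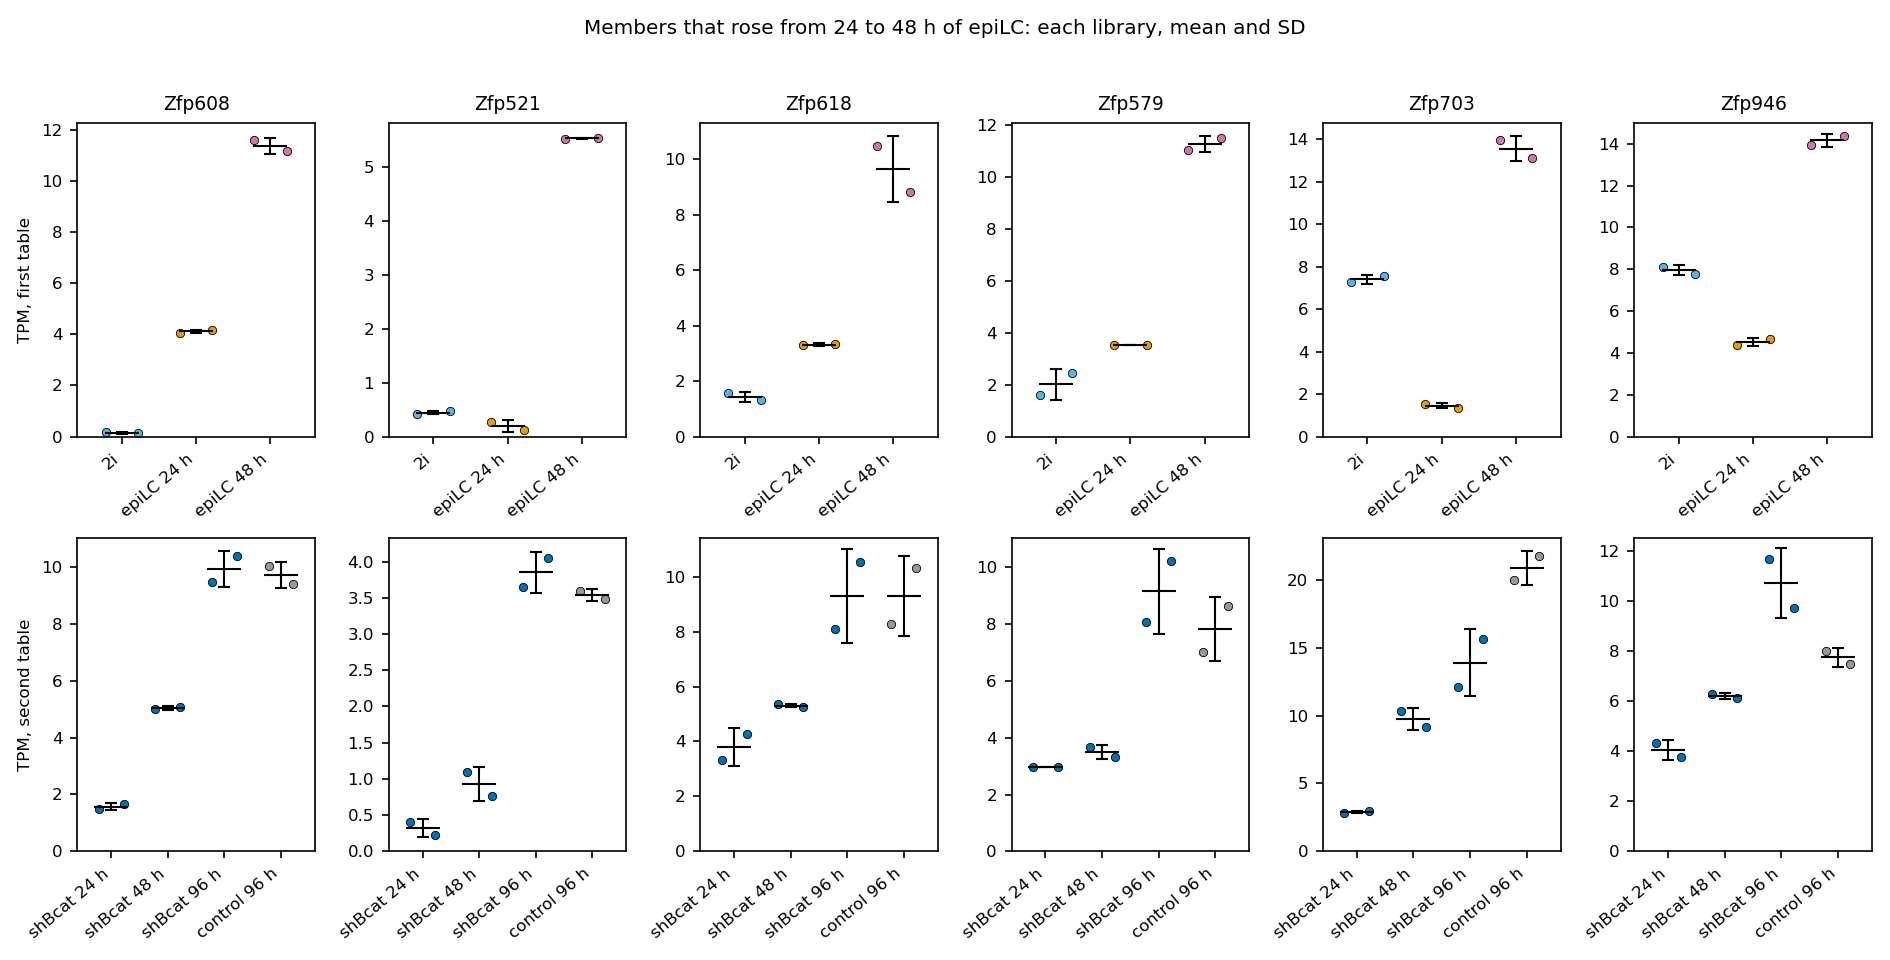
TPM (y axes, linear) of 6 members, laid out as 2i, 24 h and 48 h epiLC (upper row) and as epiLC with shBcat at 3 times with control epiLC at 96 h (lower row, a table scaled apart); points are libraries, with mean and SD. In the upper row all 6 were highest at 48 h, and in the lower row Zfp703 was higher in the control libraries at 96 h (20.0 and 21.8 TPM) than with shBcat (12.1 and 15.6 TPM).

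Of the 22 runs, 14 had at least 3 members tested in this table. In 7 of the 14 all members called at 24 h moved in 1 direction and in 7 in both, and from 24 to 48 h it was 6 and 8. The 5 runs below were picked after their values were seen. In the run of 18 numbered Zfp genes at chr17:21383707-22456689, all 10 members were tested: 8 fell and 2 rose at 24 h (median log2 change -0.66), and 8 rose and 0 fell from 24 to 48 h (median 0.47), when 40.6% of all members tested rose. Zfp942 was the farthest at the first step (21.7 to 9.32 TPM, group means), and the exceptions at 24 h were Zfp677 and Zfp948. In the second run on that chromosome, chr17:32765496-33631716, 5 of 7 members fell at 24 h and 0 rose. Over the 155 members tested, 40.6% rose and 38.1% fell at 24 h.

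Runs on chromosomes 7 and 8 went the other way. At chr7:4915181-5053723, 5 of the 5 members tested rose at 24 h (median 0.61), among them Zfp579, Zfp580 and Zfp628. At chr7:127233061-127615785, 7 of 8 rose and 0 fell at 24 h, and the exception was Zfp688. At chr8:71882068-71970333, Zfp617, Zfp882 and Zfp961 rose at 24 h, and all 4 members fell from 24 to 48 h (median -0.89). By chromosome, 22 members rose and 12 fell of 44 tested on chromosome 7 at 24 h, and 4 rose and 16 fell of 22 on chromosome 17. Members inside and outside runs had like shares called at 24 h, 77.5% of 80 and 80% of 75. The runs were described after their values were seen, and no test of position was made.

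Promoter CG content went with the direction over the 2 days. Members that rose from 2i to 48 h had a median of 19 CG dinucleotides in the promoter window (49 promoters), those that fell 10 (50 promoters) and those that did not pass 17 (30 promoters). The ranges overlapped widely, from 5 to 59 among those that rose and from 2 to 54 among those that fell. This is a description over genes that share libraries, and many are copies of each other.

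**Figure D5:**
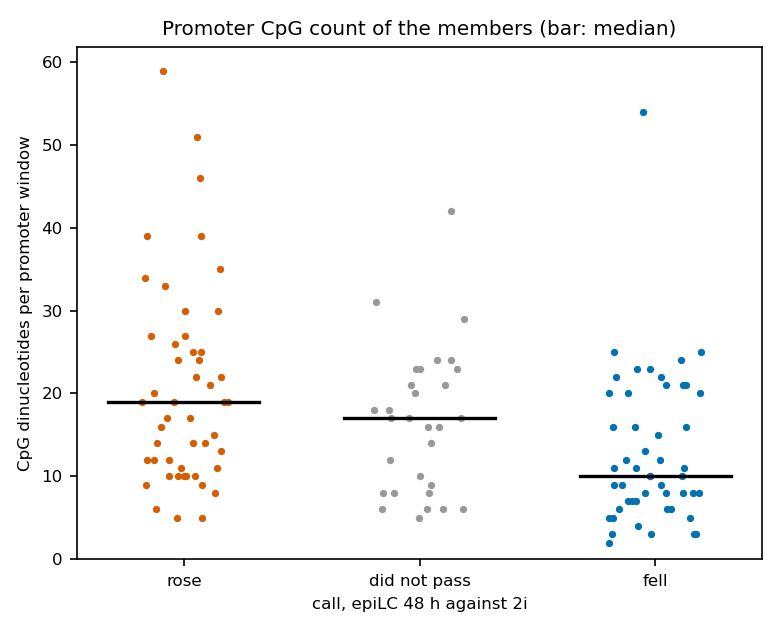
CpG dinucleotides in the RefSeq promoter window (y axis) of members with a matched promoter, by their call at 48 h of epiLC against 2i (x axis); each point is a member and the bar is the median. The medians were 19 for members that rose, 17 for those that did not pass and 10 for those that fell, with widely overlapping points.

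Of the 30 corepressor genes, 18 rose and 10 fell at 24 h (60% and 33.3%, against 36.2% and 39.8% of all genes). From 24 to 48 h, 9 rose and 18 fell (30% and 60%, against 45.2% and 28.9%). Trim28, the partner of KRAB domains, stood at a mean of 653 TPM in 2i, 1642 at 24 h and 830 at 48 h (log2 changes of 1.33 and -0.98, adjusted p = 1.73e-07 and 7.99e-07). Setdb1 changed by 0.26 and -0.20 on the log2 scale, and Cbx1 by 1.08 and -1.02. The de novo methyltransferase Dnmt3a rose from 62.4 to 450.0 TPM and then fell to 129.7.

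In epiLC with shBcat, from 24 to 48 h, 12 members rose and 37 fell of 155 (31.6%, against 33.4% of all 15304 genes). Of members 7.74% rose and 23.9% fell, against 15.7% and 17.8% of all genes. From 48 to 96 h 49 rose and 15 fell (41.3%, against 35%), or 31.6% and 9.68% of members against 25.2% and 9.83% of all genes. Without any one of the libraries compared, 22 to 31 members passed in the first step. In the second, 32 passed without replicate 2 of shBcat at 48 h, and 42 without its replicate 1 or without replicate 2 at 96 h. Median-of-ratios scaling turned the second split to 34 rises and 23 falls.

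Zfp600 fell in 2 steps with shBcat: 153 and 155 TPM at 24 h, 65.7 and 65.3 at 48 h, and 17.8 and 16.5 at 96 h (-1.22 ± 0.06 and -1.87 ± 0.06 SE, adjusted p = 1.56e-05 and 4.63e-06). Zfp534 (190 and 186, 118 and 120, 44.8 and 41.1 TPM) and Zfp640 (53.6 and 50.9, 23.7 and 26.9, 7.49 and 7.56 TPM) fell at both steps as well, as did Zfp819 (9.85 and 10.1, 4.69 and 5.5, 2.47 and 1.99 TPM). In all 4 genes the libraries of the 3 times were apart. The control course to 48 h lies in the other table, where Zfp600 stood at 101 and 103 TPM at 24 h and 9.8 and 9.45 at 48 h. The difference between the 2 courses was not tested, since the tables were scaled apart.

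The calls of the shBcat course were set beside those of the control course from 24 to 48 h, in which 35.5% of the members tested fell and 40.6% rose. Of the 15 that fell from 48 to 96 h with shBcat, 14 (93.3%) were among the 55 that fell from 24 to 48 h without it, and these were 25.5% of the 55. Of the 49 that rose, 38 (77.6%) were among the 63 that rose (60.3%). In opposite directions, 4 of the 49 had fallen and 1 of the 15 had risen in control. At the matching times, 26 of the 37 that fell with shBcat from 24 to 48 h (70.3%) also fell in control and 9 of the 12 that rose (75%) also rose. Zfp516, Zfp568, Zfp655, Zfp710 and Zfp839 fell with shBcat and rose in control, and Zfp750 did the reverse. The 2 tables share no library, and neither overlap was tested. The same overlaps over all genes are not given here, so it cannot be said whether they are particular to the members. Zfp608 and Zfp521 rose with shBcat from 48 to 96 h by 0.86 ± 0.09 and 1.34 ± 0.12 (SE), and Zfp579 by 1.17 ± 0.13. Zfp560, which rose with shHP1r in 2i, rose from 9.18 and 9.69 to 17.5 and 20.3 TPM between 24 and 48 h of shBcat epiLC (0.93 ± 0.09 SE, adjusted p = 2.21e-04).

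At 96 h, shBcat and control epiLC could be compared within a table, and 4 members were higher and 2 lower with shBcat (3.87% of 155, against 4.82% of all genes; 2.58% higher, against 2.29%, and 1.29% lower, against 2.54%). The 4 higher ones were all among the members that fell from 24 to 48 h in the table without shBcat, as 35.5% of the members tested there did. The same overlap over all genes is not given here. Zfp936 had first risen at 24 h in that table. Zfp600 stood at 17.8 and 16.5 TPM with shBcat and 8.54 and 8.32 in control (log2 change 0.94 ± 0.06 SE, adjusted p = 2.20e-04). Zfp534 stood at 44.8 and 41.1 against 26.3 and 21.8 (0.81 ± 0.08 SE, adjusted p = 0.00226), Zfp640 at 7.49 and 7.56 against 4.79 and 3.55 (0.73 ± 0.12 SE, adjusted p = 0.0129) and Zfp936 at 18.2 and 19.7 against 13.6 and 10.7 (0.61 ± 0.10 SE, adjusted p = 0.0161). The groups did not overlap in any of the 4.

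Zfp703 and Zfp688 were lower with shBcat at 96 h, as Zfp703 had been in 2i. Zfp703 stood at 12.1 and 15.6 TPM against 20.0 and 21.8 (-0.56 ± 0.12 SE, adjusted p = 0.0383) and Zfp688 at 14.7 and 13.8 against 19.5 and 20.3 (-0.45 ± 0.07 SE, adjusted p = 0.0147). Zfp600 and Zfp534 passed without any single library. Zfp640 and Zfp936 were lost without either shBcat library (adjusted p of 0.0525 to 0.0769), and Zfp703 and Zfp688 without any of 3 of the 4 libraries. Ctnnb1 stood at 144 ± 2.15 TPM with shBcat and 445 ± 4.56 in control. Of the corepressor genes, Resf1, a partner of Setdb1 (49.4 against 39.1 TPM, adjusted p = 0.0255), and Zfp57, the KRAB protein of imprinted regions (87.8 against 72.6, adjusted p = 0.0467), were higher and 0 were lower. These 2 were 6.67% of the 30 tested, and of all genes 2.29% were higher. The summed level of the 8 markers of 2-cell-like cells was 394 to 414 TPM with shBcat and 336 to 353 in control, and its part was not tested.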

How the data were processed

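Expression was measured by RNA-seq in 32 of the 50 samples of the series, and the 18 ChIP samples were not analysed here. RNA was extracted with TRIzol, treated with DNase and made into libraries with a TruSeq RNA kit, per the labels' protocols. The FPKM values were deposited by the authors and, per the submitters' processing notes, come from bcl2fastq 2.18, TopHat2 2.0.13, Bowtie2 and Cufflinks 2.2.1. The TPM values in 3 further tables were deposited by the authors and, per the same notes, come from bcl2fastq 2.18, STAR, Bowtie2 and RSEM. The build is mm10. The FPKM table lists only genes above 0 in each of its libraries, so a gene silent in any of them is not in it. It holds 1 further per-sample column, with values below 0, that was not used.

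Each table was fitted apart with limma 3.58.1 (R 4.3.3) on log2(value + 1), with a term per group, variance trend and robust moderation (statmod 1.5.0). Tests were two-sided, over genes that reached 1 in 2 or more libraries, with Benjamini-Hochberg adjustment over all genes of the table and a threshold of 0.05. Of the 162 members, 144 were tested with the V6.5 hairpins, and 18 were under that level. Of the 161 in the other tables, 156 were tested in QKO cells and 155 in each epiLC table. Neither FPKM nor TPM keeps the read depth, so its precision is unknown.

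Named members were, per comparison, up to 8 of the largest rises and 8 of the largest falls among those past the threshold, with groups that did not overlap and a higher mean of at least 2, and where fewer than 3 passed, the smallest p up to 3. Members with a known role were always eligible. Zfp711 and, for their falls with shBcat, Zfp551, Zfp560 and Zfp574 were named outside this rule after their values were seen. The members and lists were chosen with earlier results of these data known. Alternatives were other pseudocounts, filters, scalings, fits and left-out libraries. Replicate numbers were taken as names only.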

Additional observations from a re-analysis of the deposited data

Results flagged for a closer look

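Several members moved one way with shBcat in V6.5 cells in 2i and the other way with shBcat elsewhere, every library on one side of every control in each case. The difference was not tested in any of these, since the tables were scaled apart. Against epiLC at 96 h, the log2 change of Zfp553 was -0.53 in 2i and 0.18 in epiLC, that of Zfp640 -0.36 and 0.73, that of Zfp652 0.49 and -0.12, and that of Zfp654 -0.73 and 0.08. For Zfp688 it was 0.66 and -0.45, for Zfp936 -0.34 and 0.61, and for Zfp946 -0.63 and 0.42. Against QKO cells in 2i, Zfp640 changed by -0.36 in V6.5 and 0.38 in QKO, Zfp819 by -0.69 and 0.45, Zfp936 by -0.34 and 0.21, and Zfp946 by -0.63 and 0.2. Zfp654 changed by -0.1 in QKO cells and by 0.08 in epiLC at 96 h. Among these values, limma passed those of Zfp553, Zfp652, Zfp654, Zfp819 and Zfp946 in V6.5 cells in 2i, that of Zfp640 in QKO cells, and those of Zfp640, Zfp688 and Zfp936 in epiLC, and not the rest.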

How the results depend on the processing

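In the epiLC steps with no hairpin named, the number of members called stayed within 1.5 times under every alternative run. The counts of the hairpin comparisons did not, and no change reversed its sign after being called. Without a filter on low values 19 members passed with shHP1r, 26 for shHP1r against shE2F6, 0 in QKO cells (26 with an unadjusted p under 0.05) and 2 at 96 h of epiLC. With a minimum of 5, the counts were 5 with shHP1r, 6 with shBcat, 2 with shE2F6, 4 for shHP1r against shBcat, 7 against shE2F6 and 5 in QKO cells, from fewer genes tested. Median-of-ratios scaling gave 7 with shHP1r, 2 with shE2F6, 27 for shHP1r against shE2F6 and 3 in QKO cells. A pseudocount of 0.1 gave 2 with shE2F6 and 4 in QKO cells, and a fit without variance trend or robust moderation 0 in QKO cells (29 with an unadjusted p under 0.05). Fitting the compared groups alone gave 3 with shHP1r, 31 for shHP1r against shE2F6 and 2 at 96 h.

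Same-numbered libraries did not deviate together by the rule used (correlations of -0.142 to 0.283), so the numbers were taken as names. With the replicate block, 2 members passed with shHP1r, 53 with shE2F6, 31 for shHP1r against shBcat, 62 against shE2F6 and 0 in QKO cells, and the counts of the other 7 comparisons stayed within 1.5 times.

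A term for the 4 libraries with a high mitochondrial share gave 29 with shHP1r, 39 with shBcat, 43 for shHP1r against shBcat and 4 against shE2F6. With shGFP replicates 1, 2, 5 and 6 as the only controls, chosen after seeing the data, 21 passed with shHP1r, 31 with shBcat and 62 with shE2F6. With libraries averaged in pairs the 5 V6.5 hairpin comparisons gave 0. For each of these results the cause was not tested. Here and above, the share of all genes called under an alternative is not given. The member counts under alternatives therefore have no background beside them.

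Leaving out 1 library at a time gave 3 to 11 members with shHP1r, 0 to 14 with shBcat, 0 to 28 with shE2F6, 3 to 11 for shHP1r against shBcat and 3 to 10 against shE2F6. It gave 0 to 3 in QKO cells, 107 to 116 at 24 h of epiLC against 2i, 104 to 105 at 48 h against 24 h and 107 to 116 at 48 h against 2i. With shBcat in epiLC it gave 22 to 31 from 24 to 48 h, 32 to 59 from 48 to 96 h, and 3 to 4 for shBcat against control at 96 h.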

Other observations

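The 3 TPM tables also held 46 symbols of the same number class that the FPKM table does not list, and which are therefore no members. They mostly fell in epiLC: at 48 h against 2i, 1 rose and 26 fell of the 34 that could be tested (median -1.05 on the log2 scale). These were 2.94% and 76.5%, against 45.1% and 30.8% of all genes. Among the 155 members there were 64 rises and 59 falls, with a median of 0.00. At 24 h, 11 rose and 16 fell (32.4% and 47.1%, against 36.2% and 39.8% of all genes). From 24 to 48 h 6 rose and 21 fell (17.6% and 61.8%, against 45.2% and 28.9%).

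At 96 h of epiLC, 13 of 32 of these symbols were higher with shBcat than in control and 0 were lower (median log2 change 0.37). The members had 4 and 2 of 155. The share higher was 40.6%, against 2.29% of all genes (4.82% called in either direction). From 24 to 48 h with shBcat 0 rose and 20 fell (62.5% falling, against 17.8% of all genes). From 48 to 96 h 1 rose and 16 fell (3.12% and 50%, against 25.2% and 9.83%). In QKO cells 2 of 33 were higher with shBcat (6.06%, against 0.585% of all genes) and 0 lower. The class was seen after these values were computed, and copies in a cluster can share reads, so the counts are not counts of independent genes.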
